A study of Mus musculus with 54 samples.

Results

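Cytosolic ribosomal protein genes were followed in mouse CD4+ T cells before and after stimulation. They were chosen by symbol: Rpl or Rps followed by a digit, or Rpsa, Rplp0, Rplp1, or Rplp2, leaving out the Rps6k kinases and symbols marked as pseudogenes. Of the 55385 genes listed in each count table, 93 symbols fit, and 78 of these had a mean of at least 100 reads per library in both tables. These 78 members comprised 47 large subunit (Rpl) and 31 small subunit (Rps) symbols. Of the small subunit symbols, Rps19bp1, encodes a protein that binds Rps19 and is not itself part of the ribosome. Of the large subunit symbols, Rpl37rt, is annotated as a transcribed processed pseudogene.

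Ribosomal proteins are assembled with ribosomal RNA into the small and large subunits, of which the small one reads the mRNA and the large one joins the amino acids, and their genes are among the most highly transcribed in any growing cell. Their mRNAs start with a tract of pyrimidines (the terminal oligopyrimidine, or TOP, motif), through which the kinase mTOR and the RNA-binding protein LARP1 set how well they are translated. T cells that leave the resting state grow and need more ribosomes, and LAT is the adaptor that couples the TCR to most of its downstream pathways. CD5 and CD6 are surface proteins that modulate TCR signals. The comparisons below address how ribosomal protein mRNAs behave over stimulation and in the absence of these proteins.

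The mRNA of naive CD4+ T cells from pooled lymph nodes and spleens of C57BL/6 mice was sequenced in 2 experiments, each with its own table, with 3 libraries per genotype and time. Experiment I had 36 libraries of WT, Cd5-/-, Cd6-/-, and Cd5-/-Cd6-/- cells (plotted as WT, Cd5KO, Cd6KO, and dKO), enriched with magnetic beads. Experiment II had 18 libraries of cells purified on a cell sorter from mice with the Lat fl-dtr allele and maT-Cre: WT cells that were hDTR+ (positive for the human diphtheria toxin receptor) and Lat-/- cells that were hDTR- (plotted as LatKO). WT and Lat-/- cells of experiment II thus came from mice of the same line and were told apart by the sort. Cells were taken before stimulation (0 h) and after 4 h and 20 h on plate-bound anti-CD3 at 3 µg/ml and anti-CD28 at 1 µg/ml. The study describes the samples of a condition as independently prepared, but whether they came from separate mice is not given in the sources used here, so p-values measure the spread between these samples.

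Libraries held 20554354 to 45222554 counted reads in experiment I and 17784644 to 28501095 in experiment II. Lat stood at 5.69 to 19.1 CPM (counts scaled by library size and TMM factors) in the 9 Lat-/- libraries and at 92.2 to 351 in the 9 WT libraries of experiment II. At 0 h, WT cells of experiment II had 292, 214, and 241 CPM of Lat and those of experiment I 671, 649, and 792, so the WT groups differed at this gene. The 0 h library 2 labelled Cd5-/- had 719 CPM of Cd5 and 329 of Cd6, and the 0 h library 2 labelled Cd6-/- had 172 and 1203, so both went against their labels. In the other 0 h libraries, Cd5 stood at 129 and 105 CPM in Cd5-/- and at 724 and 719 in Cd6-/- cells. Cd6 stood there at 1298 and 1084 in Cd5-/- and at 349 and 251 in Cd6-/- cells. Whether these libraries 2 were exchanged was not tested. Both were kept, and the counts of members called that use them are also given without them. B cell markers (Cd79a, Cd79b, Ms4a1, and others, summed) ranged from 1.26 to 595 CPM of the library total in experiment I, the highest in 0 h library 3 of WT cells, and from 0.555 to 5.19 in experiment II. Red cell markers (globins and Alas2) stood at 203 to 5297 CPM at 0 h and 4 h and at most 74 at 20 h in experiment I, and at most 3.41 in experiment II. T cell markers ranged from 3268 to 10091, and their lowest values were at 20 h. The part of these cells in the results over time was not tested.

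The longest run of C or T within 30 bases on either side of the gene start in RefSeq (GRCm38.p6) is shown in capitals, in a window of 30 bases, 5′ to 3′, for 9 members that the results turn on or that carry a long tract. Such starts can lie inside the gene as annotated in the count tables, as in Rps2 and Rps24. The letters describe the DNA, and the start of the mRNA in these cells was not measured. A run of at least 8 C or T letters on the gene's strand was found in these stretches in 32 of the 60 members with a sequence (53.3%) and in 25.8% of 27025 genes. It was found in 19 of 69 genes of mitochondrial ribosomal proteins and in 5 of 27 genes of ribosome biogenesis. Rpl7a, Rpl34, and Rpl11 had runs of 21, 20, and 17 bases, and Rps2, Rpl7l1, and Rps19bp1 had runs of 6, 5, and 3 bases. Rpl27a, Rpl35, and Rpl15, not printed here, had runs of 20, 18, and 17 bases. Runs were counted and capitalized within the searched stretch only. Those of Rps24 and Rpl7l1 begin at its edge, 30 bases before the gene start. In both, more C or T letters stand directly before the capitals, so the full tract is longer. Members with long and with short runs were both found among those that rose in WT cells of experiment I at 20 h (Rpl7a by a log2 fold change of 0.59 and Rps2 by 1.35).
Rpl7a (chr2:26910788-26910817, plus strand): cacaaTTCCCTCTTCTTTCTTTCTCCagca
Rpl34 (chr3:130730330-130730359, minus strand): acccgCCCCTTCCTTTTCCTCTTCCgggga
Rpl11 (chr4:136053358-136053387, minus strand): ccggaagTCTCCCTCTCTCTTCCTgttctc
Rps24 (chr14:24490714-24490743, plus strand): ggtcctcttTTCCTCCTCTCCagctccggc
Rps27 (chr3:90213632-90213661, minus strand): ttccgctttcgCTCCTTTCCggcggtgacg
Rps27l (chr9:66946053-66946082, plus strand): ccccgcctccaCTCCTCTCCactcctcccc
Rps2 (chr17:24720055-24720084, plus strand): cgagatctcgcgCTTCTTggagcactataa
Rpl7l1 (chr17:46782670-46782699, minus strand): gtcgaggcgggccTCTCTaccccgcccggt
Rps19bp1 (chr15:80264292-80264321, minus strand): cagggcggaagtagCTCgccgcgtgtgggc

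Ribosomal protein genes have many processed pseudogenes of near-identical sequence, and reads of 50 bases that fit several copies cannot be placed. For each member, all 50-base windows of a principal mRNA were compared with all other annotated transcripts. The share of windows found in no other gene ranged from 1.35% (Rps27) to 100% (reached by Rps19bp1, for example), with a median of 38.3%. The 40 members with a mean of 3000 or more reads per library in both tables (the well-read members) took 97.1% of the members' reads in experiment I and 97.8% in experiment II, and their median unique share was 59.6%. It was 22.9% in the other 38 (the sparsely read members). Under 50% of the windows were unique in 34 of these 38 and in 17 of the 40 well-read members, whose lowest share was 13.3%. A level here is thus the level of placed reads. The split at 3000 reads was made after the values were seen.

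**Figure D1:**
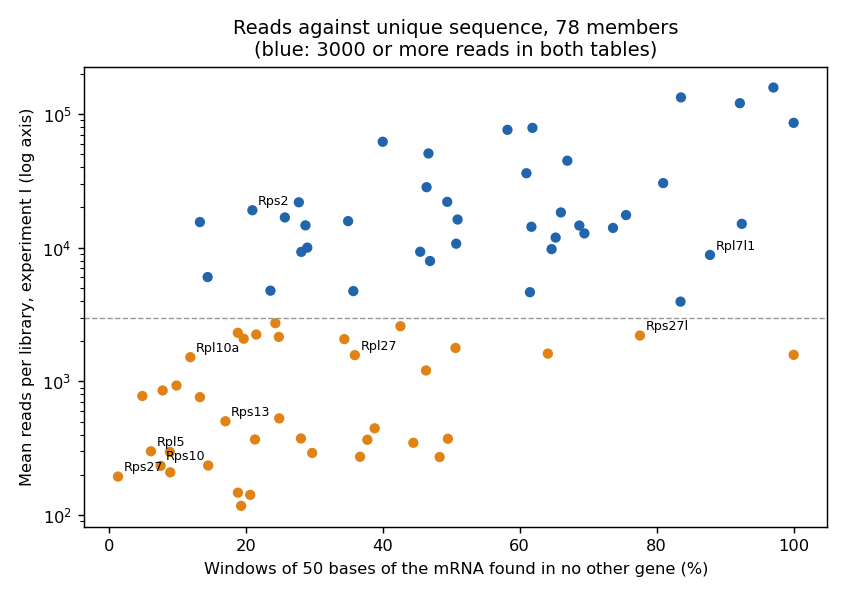
Each point is 1 of the 78 members, with the share of 50-base mRNA windows found in no other gene (x axis, %) and the mean number of reads per library in experiment I (y axis, log scale). Blue marks the 40 members with 3000 or more reads in both tables and orange the 38 others; Rps27, Rpl5, Rps10, and Rpl10a lie at the left, whereas Rps27l and Rpl7l1 lie at the right.

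The read minimum left out 15 symbols. Just outside it stood Rps16 (means of 94.8 and 99.6 reads in experiments I and II) and Rps6 (117 and 66.7), which encodes the substrate of the S6 kinases. All 78 members passed the filter of the fit (at least 1 read in total). Their mean was under 100 reads in at least 1 group for 7 members in experiment I and 10 in experiment II, among them Rps13, Rps27, and Rpl5. Exons of 37 members overlap another gene, 16 of them a named small nucleolar RNA and 18 a gene on the other strand (Rpl35, Rpl5, and Rps25 over the most bases). The strand setting of the counting is not stated, so values of these members are uncertain.

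The 78 genes took a smaller share of all reads after 4 h of stimulation in experiment I. In WT cells the share was 4.65%, 3.84%, and 5.14% at 0 h, 3.08%, 2.92%, and 3.85% at 4 h, and 3.63%, 3.99%, and 5.23% at 20 h (libraries 1, 2, and 3). The means were 4.54% ± 0.653, 3.28% ± 0.498, and 4.28% ± 0.837 (SD, n = 3), so that each numbered library was lower at 4 h than at 0 h although the groups overlapped. In Cd5-/- cells the means were 4.20% ± 0.694, 3.19% ± 0.447, and 4.21% ± 0.772, and in Cd5-/-Cd6-/- cells 4.35% ± 0.610, 3.48% ± 0.361, and 4.18% ± 0.852. In Cd6-/- cells they were 5.45% ± 2.19, 3.47% ± 0.0249, and 4.14% ± 0.625, and the 0 h mean contained library 3, which stood apart at 7.90% against 4.75% and 3.70%. Without the libraries 2 that went against their labels, the 0 h means were 4.41% in Cd5-/- and 6.32% in Cd6-/- cells (n = 2). The Cd6-/- library 3 of 0 h had the most reads of myeloid markers in the series (555 CPM). Library 3 had the highest share in 11 of 12 conditions of experiment I and the lowest Malat1 (a nuclear noncoding RNA) in 11, so part of the spread between replicates followed the library number. The part of these factors in the shares was not tested.

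In experiment II the share differed between the genotypes after stimulation. WT cells stood at 4.59%, 7.57%, and 4.99% at 0 h, 4.82%, 4.38%, and 5.17% at 4 h, and 4.46%, 4.41%, and 4.55% at 20 h, and 0 h library 2 stood apart. Lat-/- cells stood at 5.48%, 6.07%, and 5.55% at 0 h, at 6.59%, 7.13%, and 5.93% at 4 h, and at 5.54%, 6.24%, and 6.20% at 20 h. The means were 5.72% ± 1.62, 4.79% ± 0.399, and 4.47% ± 0.0689 in WT and 5.70% ± 0.324, 6.55% ± 0.605, and 5.99% ± 0.392 in Lat-/- cells. At 4 h and at 20 h all 3 Lat-/- libraries were above all 3 WT libraries. At 0 h the groups overlapped through WT library 2 alone, since the other WT libraries (4.59% and 4.99%) lay below all 3 Lat-/- libraries. Counting error was far below these differences, since the 95% Wilson interval of a library's share spanned at most 0.0239 percentage points (it covers counting error only). A share describes the makeup of the mRNA pool, and the RNA content per cell was not measured. In such bulk samples, fewer cells of a kind and less of an RNA per cell cannot be told apart.

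**Figure D2:**
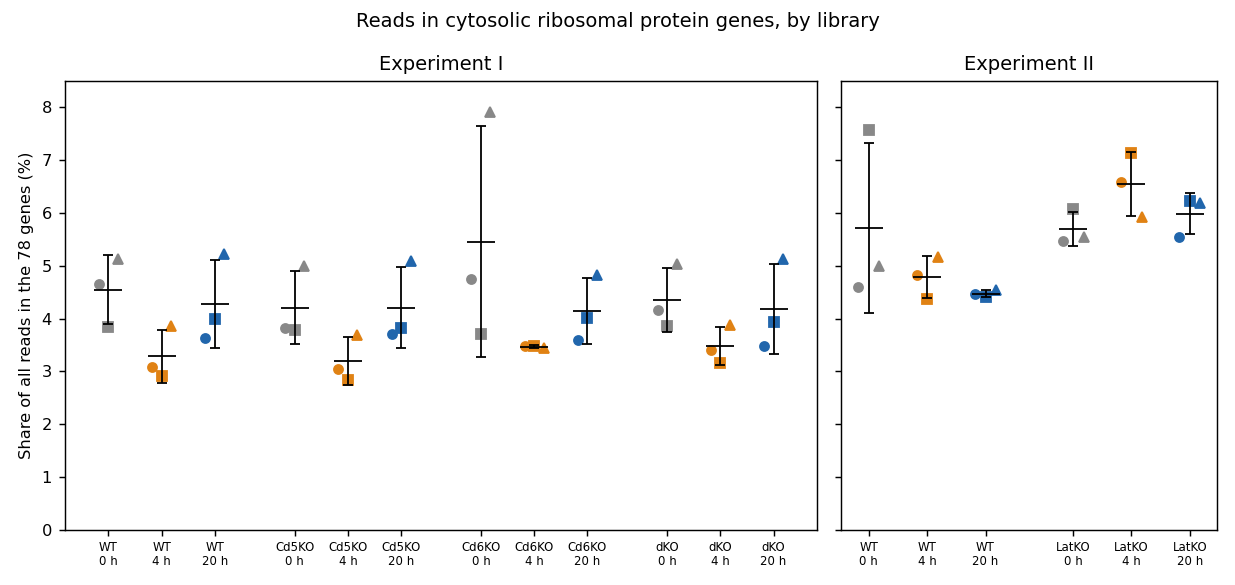
Share of all counted reads that fell in the 78 genes (y axis, %), for each library (circle, square, and triangle are libraries 1, 2, and 3) by genotype and hours of stimulation; black bars are means ± SD of 3 libraries. In experiment I the 4 h groups are lowest in each genotype, and in experiment II the 4 h and 20 h Lat-/- libraries lie above the WT libraries of the same time.

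The balance between subunits shifted with stimulation. The ratio of large to small subunit reads was 0.994, 1.03, and 0.952 in the 0 h WT libraries of experiment I and 1.21, 1.15, and 1.10 at 20 h. In WT cells of experiment II it was 1, 0.979, and 1.03 at 0 h, 1.04, 1.06, and 1.04 at 4 h, and 1.14, 1.14, and 1.17 at 20 h. In Lat-/- cells it was 1.01, 0.992, and 1.03 at 0 h and 0.996, 0.993, and 0.997 at 20 h. Thus the 20 h libraries of both WT groups lay above their 0 h libraries without overlap, and the Lat-/- libraries of these times did not separate. These ratios need no scaling factor and are given as a description, without a test.

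Before stimulation, levels per length spanned a wide range. In WT cells of experiment I at 0 h, mean CPM per kilobase of the principal mRNA was highest for Rps14 (4717), of the small subunit, Rpl8 (4534), of the peptidyl transferase region, and Rplp1 (4341), of the stalk. Rps3 (2740) and Rpl4 (2655) were also among the highest. The median over members was 124. The order depended on the length used: per kilobase of all annotated exons, Rplp1 was highest (4341), Rpl8 stood at 2839, and Rps14 at 1176. The unique shares of these 5 members ranged from 40.0% to 97%, against a median of 38.3% over all members.

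Well-read members were, in WT cells of experiment I, mostly a little lower after 4 h. Their median log2 fold change was -0.30 and 38 of 40 were below 0, although 5 fell and 1 rose past the test (Rpl7l1). Of the sparsely read members, 16 rose and 3 fell. Over all members, 17 rose and 8 fell at 4 h (edgeR's quasi-likelihood test, Benjamini-Hochberg adjusted p under 0.05), where 13.3% and 15.2% of all genes tested did so, and the median was -0.12 beside a median of 0 over all genes. With library totals in place of TMM factors, 11 rose and 24 fell, since the median over all genes then lay 0.23 lower on the log2 scale. This shift of all genes ranged from -0.20 to 0.23 over the 39 comparisons, and changes are given relative to it. With the replicate number as a block, 21 rose and 18 fell, and without replicate 3, 20 rose and 21 fell. The lowest 5 included Rps27, Rps13, and Rps21 (-1.52, -0.94, and -0.70), and the highest 5 were Rps10, Rpl10a, Rpl7l1, Rps19bp1, and Rps27l (2.18, 1.90, 1.79, 1.75, and 1.68). Throughout, shares of all genes are over genes with at least 1 read in total, 32290 in experiment I and 27780 in experiment II. Of these, 16143 and 13928 passed a stricter read filter (filterByExpr). Members had a mean of at least 100 reads, so the shares are not over genes read as deeply as the members.

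By 20 h the well-read members stood, relative to 0 h, at a median log2 fold change of 0.066 (5 rose and 4 fell). Between 4 h and 20 h, 11 of them rose and 0 fell, with a median of 0.33. Over all members, 19 rose and 13 fell from 0 h to 20 h, beside 16.9% and 21.1% of all genes. With library totals, 12 rose and 18 fell. From 4 h to 20 h, 18 rose and 11 fell, beside 13.8% and 16.7%, and with the replicate block 30 rose and 14 fell. The highest 5 at 20 h were Rps27l, Rpl27, Rpl7l1, Rps19bp1, and Rps2 (2.99, 2.57, 2.22, 2.17, and 1.35), and the lowest 5 included Rps13, Rps27, Rpl5, and Rpl12 (-4.05, -2.08, -1.51, and -1.29). Within the well-read members, the median at 20 h was 0.18 for the 23 of the large and -0.10 for the 17 of the small subunit.

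In WT cells of experiment II, 10 members rose and 6 fell at 4 h, where 14.2% and 14.8% of all genes did, with a median of -0.015. With library totals, 7 rose and 19 fell. At 20 h, 7 rose and 36 fell, beside 16.5% and 18.2% of all genes, and the median was -0.34. Among the well-read members, 3 rose and 19 fell at 20 h, and their median was -0.46 for the small and -0.18 for the large subunit. From 4 h to 20 h, 6 rose and 34 fell, beside 13.4% and 16.1%, and without replicate 1, 5 rose and 16 fell. The highest 5 at 4 h were Rps19bp1, Rpl7l1, Rps27l, Rpl27, and Rpl10a (1.65, 1.57, 1.55, 1.49, and 1.20), and the lowest 5 included Rps13, Rps27, Rpl27a, and Rpl3 (-1.67, -1.38, -0.68, and -0.45). At 20 h, the highest 5 were Rps27l, Rpl27, Rpl7l1, Rps19bp1, and Rps2 (2.18, 1.94, 1.71, 1.57, and 0.89), and the lowest 5 included Rps13, Rps27, Rps27rt, and Rpl12 (-3.54, -2.22, -1.82, and -1.53). Part of the fall at 20 h rested on the 0 h library 2 that stood apart. Without it, 12 rose and 22 fell at 20 h with a median of -0.062, and 15 rose and 4 fell at 4 h with a median of 0.24.

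**Figure D3:**
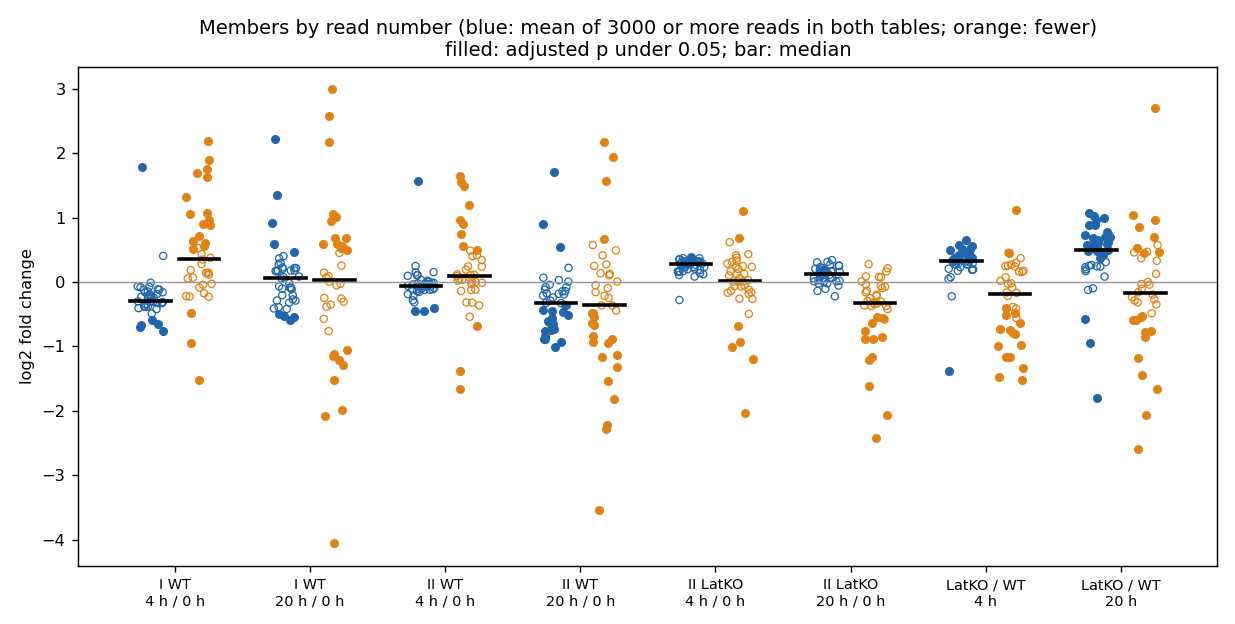
Log2 fold change (y axis) of each member in 8 comparisons (x axis), with the 40 well-read members in blue and the 38 sparsely read in orange; filled points passed the test at an adjusted p under 0.05, and bars are medians. Blue points are narrowly spread with a few exceptions, and their medians are 0.28 in Lat-/- cells at 4 h and -0.30 in WT cells of experiment I at 4 h.

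Rps27l rose and Rps27 fell in stimulated WT cells, although they encode closely related forms of the same small subunit protein. In experiment I, Rps27l stood at 15.5, 12.2, and 24.1 CPM at 0 h, 55.6, 48.2, and 62.8 at 4 h, and 104, 135, and 174 at 20 h. WT cells of experiment II had 17.7, 36.5, and 20.7 CPM at 0 h, 79.1, 74, and 66.4 at 4 h, and 112, 111, and 115 at 20 h, and no 0 h library reached a 4 h or 20 h library in either experiment. Its log2 fold change at 20 h was 2.99 (SE 0.24, adjusted p = 1.30e-18) in experiment I and 2.18 (SE 0.16, adjusted p = 3.75e-38) in experiment II. Over the same hours, Rps27 fell from 11.9, 12.6, and 10.2 CPM at 0 h to 3.62, 3.96, and 4.54 at 4 h and 3.07, 2.51, and 2.63 at 20 h in experiment I, with -2.08 (SE 0.24, adjusted p = 5.78e-12) as its log2 fold change at 20 h. In experiment II it fell by 2.22 on the log2 scale at 20 h (SE 0.24, adjusted p = 1.04e-18). Rps27l is placed by 77.6% unique windows, but Rps27 by only 1.35%, so few reads can be placed on Rps27 alone. Reads of Rps27l were 154% of those of Rps27 at 0 h and 5122% at 20 h in experiment I.

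Rpl7l1, a paralog of the large subunit gene Rpl7, also rose. Its WT values were 77.6, 77.2, and 121 CPM at 0 h, 333, 310.5, and 313 at 4 h, and 373, 443, and 472 at 20 h in experiment I. In experiment II they were 95.3, 134, and 99.1 at 0 h, 357, 319, and 302 at 4 h, and 346, 352, and 376 at 20 h. In both experiments the groups at 4 h and 20 h lay above the 0 h group without overlap, with log2 fold changes of 1.79 (SE 0.18, adjusted p = 2.42e-14) at 4 h and 2.22 (SE 0.18, adjusted p = 1.77e-18) at 20 h in experiment I. Rpl7 itself had log2 fold changes of -0.15 (SE 0.18, adjusted p = 0.627) at 4 h and 0.40 (SE 0.18, adjusted p = 0.0667) at 20 h. Reads of Rpl7l1 amounted to 6.18% ± 1.22 of those of Rpl7 (SD, n = 3) at 0 h and to 22.1% ± 1.12 at 20 h. Rpl22l1, whose partner Rpl22 is needed for the development of αβ T cells, had a log2 fold change at 20 h of 0.091 (SE 0.19, adjusted p = 0.841) in experiment I and of -0.48 (SE 0.15, adjusted p = 0.00575) in experiment II. Rpl36al had 0.69 (SE 0.23, adjusted p = 0.0109) and its partner Rpl36a 0.58 (SE 0.23, adjusted p = 0.038) in experiment I.

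Rpl27, Rps19bp1, and Rps2 also rose in stimulated WT cells. Rpl27, of the large subunit, stood at 15.1, 14.5, and 15 CPM at 0 h, 44.5, 48.3, and 44.8 at 4 h, and 71.5, 82.9, and 112 at 20 h in experiment I, with 2.57 (SE 0.18, adjusted p = 2.31e-21) as its log2 fold change at 20 h. WT cells of experiment II had 13.9, 21.7, and 17.9 at 0 h and 61.7, 66.3, and 76.8 at 20 h, and in neither experiment did these groups overlap. Rps19bp1 had 2.17 (SE 0.17, adjusted p = 6.63e-19) on the log2 scale at 20 h in experiment I and 1.57 (SE 0.17, adjusted p = 1.31e-19) in experiment II. Rps2, which encodes a core protein of the small subunit, was the other well-read member besides Rpl7l1 among the 5 highest at 20 h in both experiments. It stood at 393, 282, and 444 CPM at 0 h, 505, 449, and 528 at 4 h, and 802, 908, and 1138 at 20 h, with 1.35 (SE 0.19, adjusted p = 2.78e-09) as its log2 fold change at 20 h, and in experiment II it had 0.89 (SE 0.15, adjusted p = 8.82e-09). Its groups at 0 h and 20 h did not overlap in either experiment. Of the windows of Rps2, 21.0% are unique, and the others are shared with 71 genes.

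**Figure D4:**
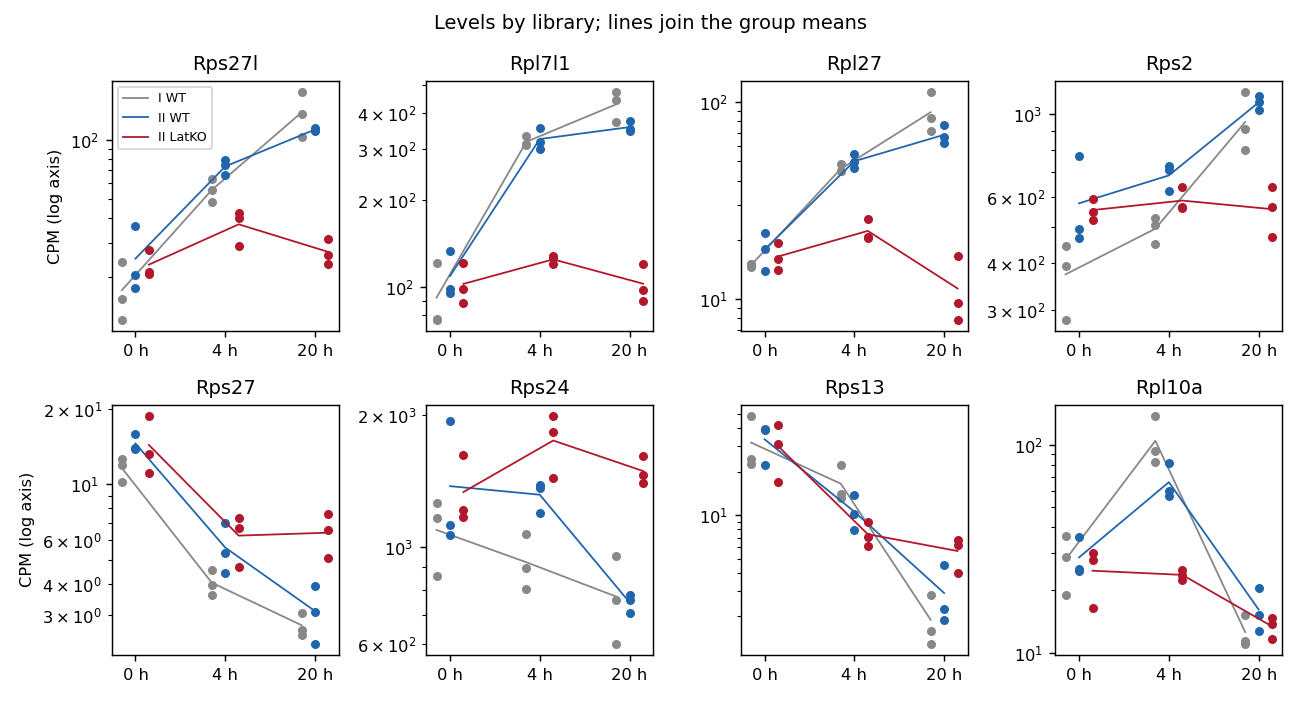
CPM (y axes, log scale) of 8 members in each library of WT cells of experiment I (gray) and of WT (blue) and Lat-/- (red) cells of experiment II at 0, 4, and 20 h; lines join group means. In Rps27l, Rpl7l1, and Rpl27 the red points at 20 h lie below every WT point at 20 h, whereas in Rps24 they lie above.

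The largest falls were among sparsely read members. Rps13, of the small subunit, stood at 24.5, 48.6, and 22.5 CPM at 0 h, 13.1, 22.4, and 14.1 at 4 h, and 2.79, 1.58, and 1.29 at 20 h in WT cells of experiment I, with -4.05 (SE 0.32, adjusted p = 7.23e-19) as its log2 fold change at 20 h. WT cells of experiment II had 39.5, 22.2, and 39.1 at 0 h, 13.8, 10.1, and 7.85 at 4 h, and 1.88, 2.25, and 4.55 at 20 h, and the 0 h and 20 h groups did not overlap. This fall was in the reads placed on the gene itself: its 7 named pseudogenes held a mean of 1383 reads per library at 0 h and 1251 at 20 h, more than the gene (1093 and 58.7). With the pseudogene reads added, the log2 fold change was -0.65 (SE 0.18, adjusted p = 0.00144). Rps10 and Rpl10a rose at 4 h, by 2.18 (SE 0.27, adjusted p = 8.61e-11) and 1.90 (SE 0.26, adjusted p = 3.43e-09) on the log2 scale, and had log2 fold changes at 20 h of -0.38 (SE 0.27, adjusted p = 0.303) and -1.16 (SE 0.26, adjusted p = 1.28e-04). With pseudogene reads added, Rps10 had 0.51 (SE 0.21, adjusted p = 0.0609) at 4 h and Rpl10a 1.69 (SE 0.22, adjusted p = 1.06e-09). Over the sparsely read members, 14 passed the test at 20 h with a fold over 2 (as did 29.6% of all genes), and 9 of them did so with pseudogene reads added, whereas both such well-read members did. In well-read members the added reads moved a log2 fold change by at most 0.08 in this comparison. Only pseudogenes named after a member were added, however. Rpl23 and Rps20 had 0 of these, although they share windows with 68 and 50 other genes. The small shift thus does not show how reads of other copies would move the well-read members.

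Rpl5 and Rpl11 form the particle with 5S ribosomal RNA that joins the large subunit and that binds Mdm2 when assembly fails. Rpl5 stood at 6.22, 10.0, and 5.29 CPM at 0 h, 15.3, 24, and 14.4 at 4 h, and 3.38, 2.06, and 2.02 at 20 h in WT cells of experiment I, so it was highest at 4 h and lowest at 20 h without overlap. Its log2 fold changes were 1.32 (SE 0.29, adjusted p = 1.36e-04) at 4 h and -1.51 (SE 0.31, adjusted p = 2.41e-05) at 20 h. Rpl11 had 0.43 (SE 0.19, adjusted p = 0.0803) and -0.053 (SE 0.19, adjusted p = 1). Of Rpl5, 6.16% of windows are unique, and its exons overlap Fam69a on the other strand. Of the acidic stalk, which recruits elongation factors, Rplp0 had log2 fold changes of -0.19 and 0.22 at 4 h and 20 h, Rplp1 -0.38 and -0.11, and Rplp2 -0.31 and -0.087 in WT cells of experiment I, with adjusted p from 0.167 to 0.904.

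In Lat-/- cells, the members that passed the test at 20 h were all lower than at 0 h, and all were sparsely read. Of the 40 well-read members, 0 passed it at 20 h. At 4 h, 3 rose and 5 fell, beside 7.38% and 8.05% of all genes, and at 20 h 0 rose and 12 fell, beside 5.35% and 5.34%. The 3 that rose at 4 h were Rpl36, Rps27l, and Rps24, with log2 fold changes of 1.09 (SE 0.26, adjusted p = 2.64e-04), 0.68 (SE 0.16, adjusted p = 3.62e-04), and 0.39 (SE 0.14, adjusted p = 0.0457). Rpl36 stood at only 5.13, 2.66, and 6.26 CPM at 0 h and 14.7, 9.74, and 5.51 at 4 h, with 18.9% unique windows. Its groups overlapped, as did those of Rps24, whereas the groups of Rps27l did not. The 5 that fell were Rps13, Rps27, Rps27a, Rpl10, and Rpl9 (-2.03, -1.20, -1.01, -0.92, and -0.68), and Rps27a among them encodes ubiquitin fused to a small subunit protein. The lowest 5 at 20 h included Rps13, Rpl10, Rps27a, and Rps27 (-2.42, -1.61, -1.21, and -1.17). Well-read members were on balance a little higher at 4 h, with a median of 0.28 and 39 of 40 above 0, although 1 passed the test (Rps24). Leaving out 1 replicate number changed the count at 4 h: without replicate 1, 0 rose and 4 fell, without replicate 2, 6 rose and 7 fell, and without replicate 3, 16 rose and 3 fell. At 20 h, without replicate 1, 0 rose and 6 fell. From 4 h to 20 h, 0 rose and 10 fell, beside 5.39% and 4.74% of all genes. Rps27 and Rps13 fell in Lat-/- cells too, with log2 fold changes of -1.17 (SE 0.23, adjusted p = 1.63e-05) and -2.42 (SE 0.21, adjusted p = 1.48e-28) at 20 h. With pseudogene reads added, Rps13 had -0.29 (SE 0.15, adjusted p = 0.249) at 4 h and no longer passed the test.

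Lat-/- and WT cells did not differ in any member at 0 h by this test (0 called, 2 with an unadjusted p under 0.05, 0 by DESeq2, and 1.59% of all genes called). The WT group at 0 h held library 2, which stood apart. Without that library, 1 member passed the test at 0 h and the median over members lay above 0, with its value in the last paragraph. At 4 h, 16 members were higher and 16 lower in Lat-/- cells, beside 11.9% and 12% of all genes. Among the well-read members, 14 were higher and 1 lower (Rpl7l1). The highest 5 at 4 h included Rps27rt, Rps21, Rpl39, and Rplp1 (1.12, 0.66, 0.57, and 0.52), and the lowest 5 were Rps27a, Rpl10a, Rpl7l1, Rps19bp1, and Rpl27 (-1.52, -1.48, -1.38, -1.33, and -1.17). With library totals, 33 were higher and 12 lower. Without replicate 1, 3 were higher and 8 lower, so the count at 4 h rested on that replicate. At 20 h, 34 were higher and 15 lower, beside 17.6% and 17.6% of all genes. Of the well-read members, 26 of 40 were higher, with a median log2 difference of 0.50. They included 14 of 17 of the small and 12 of 23 of the large subunit, and the medians of these classes were 0.68 and 0.46. At 20 h, Malat1 stood at 7.30 to 8.48 CPM in WT and at 73.2 to 213 in Lat-/- cells. T cell markers stood at 3788 to 4221 and 5837 to 6863, and their part in the difference was not tested.

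Rps24, one of the highest of these, stood at 779, 758, and 707 CPM in WT and 1399, 1615, and 1460 in Lat-/- cells at 20 h, a log2 difference of 1.00 (SE 0.15, adjusted p = 6.39e-11). Rps15a, another small subunit gene, stood at 399, 409, and 418 and 846, 886, and 753, a log2 difference of 1.02 (SE 0.15, adjusted p = 3.39e-11). In both genes the genotypes did not overlap. Rps27rt, a retrogene of Rps27 with 8.92% unique windows, was the highest, at 1.67, 14, and 16.2 CPM in Lat-/- and 1.20, 1.11, and 2.65 in WT cells. Library 1 of the Lat-/- cells lay within the WT range, and the log2 difference was 2.70 (SE 0.27, adjusted p = 5.52e-23).

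Rps21 and Rpl39 were higher at both times. At 4 h, Rps21 stood at 677, 592, and 802 CPM in WT and 1147, 1228, and 894 in Lat-/- cells, a log2 difference of 0.66 (SE 0.15, adjusted p = 5.35e-05). At 20 h it stood at 429, 449.7, and 519 and 846, 978, and 897. The genotypes did not overlap at either time. Rpl39 had log2 differences of 0.57 at 4 h and 0.73 at 20 h. Of the stalk, Rplp0, Rplp1, and Rplp2 had 0.35, 0.52, and 0.17 at 4 h, where Rplp1 alone passed the test, and 0.50, 0.65, and 0.56 at 20 h, where all 3 did. Of the 5S particle, Rpl5 and Rpl11 had 0.46 (SE 0.26, adjusted p = 0.181) and 0.12 (SE 0.20, adjusted p = 0.732) at 20 h. Rpl10a and Rps27a, the lowest at 4 h with Rpl7l1, stood at 24.9, 23.7, and 22.4 and 5.13, 3.99, and 4.01 CPM in Lat-/- cells against 81.4, 59.8, and 56.8 and 16.9, 11.6, and 9.32 in WT cells, with no overlap in either gene. By 20 h Rpl10a had -0.27 (SE 0.18, adjusted p = 0.268).

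The 5 members with the highest log2 fold changes in WT cells of experiment II at 20 h, namely Rps27l, Rpl27, Rpl7l1, Rps19bp1, and Rps2, were lower in Lat-/- than in WT cells at that time. The WT libraries at 20 h enter both comparisons. Rps27l stood at 26, 23.3, and 31.5 CPM in Lat-/- cells, against 112, 111, and 115 in WT cells, and Rpl27 at 9.56, 7.87, and 16.6 against 61.7, 66.3, and 76.8. Neither pair of groups overlapped, and the log2 differences were -2.06 (SE 0.16, adjusted p = 1.11e-34) and -2.59 (SE 0.18, adjusted p = 3.93e-45). Rpl7l1 stood at 98.2, 90.0, and 121 CPM against 346, 352, and 376, a log2 difference of -1.80 (SE 0.15, adjusted p = 1.41e-30), and Rps19bp1 differed by -1.65 (SE 0.17, adjusted p = 1.32e-21). Besides Rpl7l1, the well-read members Rps2 and Rpl41 were lower. Rps2 stood at 468, 565, and 636 CPM against 1025, 1072, and 1116 without overlap, a log2 difference of -0.94 (SE 0.15, adjusted p = 9.54e-10), and Rpl41 differed by -0.57 (SE 0.15, adjusted p = 4.35e-04). Rpl28 differed by -1.45 (SE 0.23, adjusted p = 1.62e-09), although 49.5% of its windows are unique and its exons overlap Ube2s on the other strand.

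**Figure D5:**
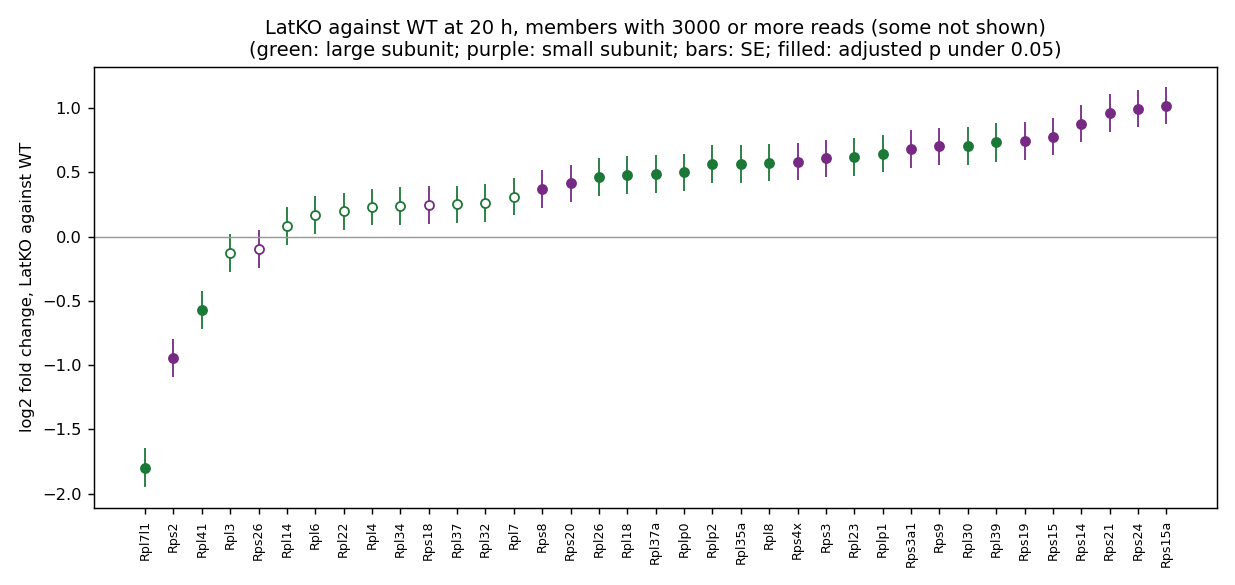
Log2 difference between Lat-/- and WT cells at 20 h (y axis; bars are SE) for well-read members, some of which are not shown, ordered by value; green marks large and purple small subunit genes, and filled points passed the test. Most points lie above 0, whereas Rpl7l1 and Rps2 lie lowest, at -1.80 and -0.94.

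The difference between the responses of Lat-/- and WT cells was itself tested. From 0 h to 4 h, 4 members responded higher in Lat-/- cells and 8 lower, beside 7.42% and 7.58% of all genes, and from 0 h to 20 h 25 higher and 9 lower, beside 13.5% and 12.8%. From 4 h to 20 h, 12 responded higher and 5 lower, beside 10.7% and 8.87%. The lower group at 20 h was led by Rpl27, Rps27l, and Rpl7l1, with differences of -2.48 (SE 0.25, adjusted p = 4.70e-22), -1.96 (SE 0.23, adjusted p = 2.24e-16), and -1.71 (SE 0.21, adjusted p = 1.65e-14) on the log2 scale. The higher group was led by Rps27rt, Rps15a, and Rps13, with 2.10, 1.17, and 1.12. At 20 h, Rps13 stood at only 6.78, 3.97, and 6.22 CPM in Lat-/- and 1.88, 2.25, and 4.55 in WT cells, which overlapped. Its named pseudogenes then held a mean of 1392 and 991 reads in these genotypes, against 130 and 69.3 on the gene. Without the 0 h library 2 of WT cells that stood apart, 12 members were higher and 15 lower at 20 h, and the median over members was 0.077 rather than 0.32. At 4 h, 0 were higher and 9 lower without it. Leaving out replicate 1 gave 17 higher and 5 lower at 20 h and 1 and 4 at 4 h, and leaving out replicate 3 gave 17 and 7 at 4 h. Thus the count of members with a higher response depended on this library, whereas the lower response of Rpl27, Rps27l, Rpl7l1, and Rps19bp1 at 20 h passed the test in each of the 12 alternatives run on it.

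No member passed the test between Cd5-/-, Cd6-/-, or Cd5-/-Cd6-/- cells and WT cells at 0 h, 4 h, or 20 h, by edgeR or by DESeq2. Of all genes, 0.0619%, 0%, and 0.0279% passed it at 0 h in these genotypes, 0.0867%, 0.0031%, and 0.0434% at 4 h, and 0.0217%, 0.0186%, and 0.0465% at 20 h. At an unadjusted p under 0.05, 7 members differed between Cd6-/- and WT cells at 0 h, 1 between Cd5-/-Cd6-/- and WT cells at 0 h, and 0 in the other 7 comparisons. The medians ranged from -0.063 to 0.23, the highest in Cd6-/- cells at 0 h, where library 3 stood apart. The edgeR tests of a difference in response called 0 members as well, beside 0.0031%, 0%, and 0% of all genes from 0 h to 4 h in the same order of genotypes and 0.0031%, 0.0031%, and 0% from 0 h to 20 h. Up to 4 members had an unadjusted p under 0.05 there, and DESeq2 called 0. Without both 0 h libraries 2 that went against their labels, the edgeR tests still called 0 members in Cd5-/- and in Cd6-/- cells. The Cd6-/- cells were then left with libraries 1 and 3 at 0 h, of which library 3 stood apart, and members with an unadjusted p under 0.05 numbered 48 against WT cells at 0 h, 21 in the difference of responses to 4 h, and 35 in that to 20 h. In Cd5-/- cells they numbered 0 in each. A test that does not pass does not show that the genotypes are alike: the median SE of a member's log2 difference was 0.20 in Cd5-/- against WT cells at 20 h.

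Each knockout's own response was also tested. At 4 h, 18 members rose and 4 fell in Cd5-/- cells (beside 13.2% and 15.2% of all genes), 15 and 27 in Cd6-/- cells (beside 12.5% and 14.7%), and 15 and 4 in Cd5-/-Cd6-/- cells (beside 12.6% and 13.7%). At 20 h, 18 rose and 11 fell in Cd5-/- cells (beside 16.8% and 21.3%), 10 and 27 in Cd6-/- cells (beside 16% and 20.8%), and 19 and 13 in Cd5-/-Cd6-/- cells (beside 16.7% and 21.6%). From 4 h to 20 h, 24 rose and 12 fell (beside 13.9% and 16.9%) in Cd5-/-, 13 rose and 15 fell (beside 13.7% and 16.9%) in Cd6-/-, and 15 rose and 13 fell (beside 13.4% and 17.8%) in Cd5-/-Cd6-/- cells. The many falls in Cd6-/- cells rested on 0 h library 3. Without it, 13 rose and 3 fell at 4 h and 15 rose and 15 fell at 20 h. Without both 0 h libraries 2 that went against their labels, 17 rose and 10 fell in Cd5-/- cells and 15 rose and 45 fell in Cd6-/- cells at 4 h, and 16 rose and 15 fell in Cd5-/- cells and 9 rose and 39 fell in Cd6-/- cells at 20 h. Rps27l rose at 20 h in each of the 3 knockouts, by log2 fold changes of 2.93, 2.62, and 2.99 in Cd5-/-, Cd6-/-, and Cd5-/-Cd6-/- cells, and Rps27 fell, by 1.91, 2.07, and 1.93 on the log2 scale. Without those libraries 2, the log2 fold changes of Rps27l were 2.75 and 2.45 in Cd5-/- and Cd6-/- cells and those of Rps27 were -1.94 and -1.96.

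Genes that build ribosomes rose in WT cells. Of 30 genes of ribosome biogenesis (RNA polymerase I subunits, nucleolar proteins such as Ncl, Fbl, and Nop56, and processing factors), 29 rose and 0 fell at 4 h in WT cells of experiment I, with a median log2 fold change of 2.06. At 20 h, 29 rose, with a median of 1.90. In experiment II, 29 rose in WT cells and 1 in Lat-/- cells at 20 h, where 11 fell. Against WT cells, 30 of 30 were lower in Lat-/- cells at 20 h, with a median of -1.91, while the median of the well-read ribosomal protein genes was 0.50. Mitochondrial ribosomal protein genes rose as well: 74 of 82 in experiment I (median 1.54) and 72 in WT cells of experiment II at 20 h, whereas 1 rose and 4 fell in Lat-/- cells. Of all genes, 13.3% rose and 15.2% fell in WT cells of experiment I at 4 h, and 16.9% and 21.1% at 20 h. In experiment II at 20 h, 16.5% rose and 18.2% fell in WT and 5.35% and 5.34% in Lat-/- cells. Against WT cells, 17.6% were higher and 17.6% lower in Lat-/- cells at 20 h. These shares also stand beside the counts of the lists below.

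Of 16 other genes whose mRNAs are known to carry the TOP motif (elongation factors, subunits of eIF3, and others), 6 rose and 1 fell at 4 h in WT cells of experiment I, and 11 rose and 1 fell at 20 h (median 0.59). In experiment II, 7 rose and 2 fell in WT cells at 20 h, and 4 and 1 in Lat-/- cells. Fau and Rack1, whose symbols lie outside the rule although they encode ribosomal proteins, did not pass the test at 20 h in WT cells, with log2 fold changes of 0.80 and 0.21 in experiment I.

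Genes that control the transcription or translation of ribosomal proteins were given by a list of 11. At 4 h in WT cells of experiment I, 5 rose and 1 fell. Myc, the transcription factor that drives growth genes, rose by 3.21 (SE 0.18, adjusted p = 8.02e-27) on the log2 scale, Rheb, the activator of mTOR, by 2.14 (SE 0.17, adjusted p = 3.58e-18), and Larp1 by 1.67 (SE 0.25, adjusted p = 4.21e-08). At 20 h, Eif4ebp1, a translation repressor under mTOR, had risen by 2.84 (SE 0.24, adjusted p = 9.65e-18). Rptor and Rps6kb1 rose at 4 h by 0.71 and 0.91, and Eif4ebp2 fell by 0.46. Mtor, Tsc1, Tsc2, Rps6kb2, and Eif4ebp1 did not pass the test at 4 h, with log2 fold changes from -0.19 to 0.25. In Lat-/- cells, Myc had log2 fold changes of 0.28 (SE 0.15, adjusted p = 0.238) at 4 h and -0.33 (SE 0.15, adjusted p = 0.171) at 20 h, and it was below that of WT cells by 2.83 on the log2 scale at 20 h (SE 0.16, adjusted p = 5.58e-70). Larp1 was lower as well, by 1.27 on the log2 scale (adjusted p = 4.05e-16), and so were Eif4ebp1, Rps6kb2, Mtor, and Rps6kb1. Eif4ebp2 and Tsc1 were higher, with log2 differences of 1.15 and 0.73.

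Members were also compared by how their log2 CPM followed the mean of the other members over the libraries of an experiment, as a description, since libraries share depth and composition. The median Pearson r was 0.549 among the well-read and 0.189 among the sparsely read members over 36 libraries of experiment I, and 0.657 and 0.445 over 18 of experiment II. The 5 least alike in experiment I were Rps13, Rps27, Rpl5, Rpl28, and Rpl10, with r from -0.203 to -0.0467. In experiment II they were Rps2, Rps27l, Rpl7l1, Rpl27, and Rps19bp1, with r from -0.164 to -0.00552.

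The members named most often lie, in the annotation of GRCm38, as follows. Rps27l is ENSMUSG00000036781.13, chr9:66946086-66949516, plus strand, Rps27 is ENSMUSG00000090733.6, chr3:90212522-90213651, minus strand, and Rpl7l1 is ENSMUSG00000063888.7, chr17:46773907-46782672, minus strand. Rpl27 is ENSMUSG00000063316.13, chr11:101442298-101445529, plus strand, Rps2 is ENSMUSG00000044533.15, chr17:24718116-24721929, plus strand, and Rps24 is ENSMUSG00000025290.17, chr14:24487125-24496959, plus strand. Reads were counted over the exons of each gene.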

How the data were processed

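Naive CD4+ T cells of 54 libraries were profiled by poly-A RNA-seq with stranded libraries and single-end reads. The authors demultiplexed reads with bcl2fastq v2.17.1.14, aligned them to the mouse genome (GRCm38/mm10) with STAR, and deposited raw read counts per gene made with featureCounts, 1 table per experiment. The strand and multi-mapping settings of the counting are not given in the sources used here. Symbols were taken from GENCODE M21 by gene ID (55144 of 55385 matched). The members and gene lists were chosen with earlier results of these data known.

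Counts of genes with at least 1 read in total (32290 in experiment I and 27780 in experiment II) were fitted with edgeR v4.0.16 (R v4.3.3): TMM factors, all libraries of an experiment, 1 coefficient per genotype and time, and 2-sided quasi-likelihood tests. P-values were adjusted by Benjamini-Hochberg over all genes of a comparison. SE was derived from the log2 fold change and the test statistic. The procedure was tested on simulated data. Members named were the 5 highest and 5 lowest by log2 fold change in each main comparison, paralogs with partners, the stalk, the 5S particle, call lists of 5 or fewer, and the genes of 2 lists. Others were chosen after their values were seen, namely Rps24, Rps15a, Rpl41, and some of the members with long tracts or high levels. Some members and marker genes are not reported here.

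Same-numbered libraries deviated together in experiment I (mean r = 0.324, against -0.158 for different numbers). Every pair was above 0.1 in 20 of 27 comparisons. In experiment II the mean r was 0.0927, and every pair was above 0.1 in 2 of 12. Between Lat-/- and WT libraries it was higher, at 0.361 (0 h), 0.213 (4 h), and 0.194 (20 h), against -0.176, -0.0997, and -0.0930 for different numbers. The main tests did not pair libraries by number, which only the replicate block did. All pairs of replicates differed by more than sampling noise (smallest chi-square per degree of freedom 3.43). Alternatives were DESeq2 v1.42.0, RLE factors, library totals, TMM without the members, filterByExpr, the compared groups alone, the replicate block, leaving out each replicate, pseudogene reads added, and a fold over 2. Chosen after seeing the data were the fits without a 0 h library that stood apart and the limit to well-read members.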

Additional observations from a re-analysis of the deposited data

Results flagged for a closer look

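The responses of Lat-/- and WT cells to stimulation differed by the test of the difference itself. At 4 h against 0 h, 4 members responded higher in Lat-/- cells and 8 lower. The lower ones included Rpl7l1, Rpl10a, Rps19bp1, Rps27a, Rpl10, and Rps27l, with differences of -1.29, -1.27, -1.24, -1.13, -1.12, and -0.87 on the log2 scale. The higher ones included Rps15a, Rps21, and Rpl39, with differences of 0.60, 0.63, and 0.75. At 20 h against 0 h, 25 responded higher and 9 lower. Lower responses were seen in Rpl27 (-2.48), Rps27l (-1.96), Rpl7l1 (-1.71), Rps19bp1 (-1.56), Rpl28 (-1.25), and Rpl36a (-1.16). Higher responses were seen in Rps27rt (2.10), Rps15a (1.17), Rps13 (1.12), Rps27 (1.05), and in Rplp1 and Rplp2 of the stalk (0.51 and 0.55). The limits of the values of Rps27rt, Rps13, and Rps27 are given above. Between 4 h and 20 h, 12 responded higher and 5 lower, beside 10.7% and 8.87% of all genes. The 0 h libraries are shared by the 4 h and 20 h comparisons, and the counts without the WT library that stood apart are given above.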

How the results depend on the processing

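Counts of called members stayed within 1.5 times the reported count in 442 of 499 recomputed values, medians moved by less than their spread in 474 of 499, and no named member changed direction (88 of 1314 values no longer passed the test). These counts take rises and falls together, so a change in their balance does not show in them. With library totals, falls outnumbered rises in WT cells of experiment I at 4 h and at 20 h, the reverse of the main fit, as given above. The counts and medians that moved beyond these limits follow, and the cause was not tested. With a fold over 2 required as well, the counts were 10 (WT 4 h), 16 (WT 20 h), 11 (WT 20 h over 4 h), 11 (Cd5-/- 4 h), 18 (Cd5-/- 20 h), 14 (Cd5-/- 20 h over 4 h), 11 (Cd6-/- 4 h), 14 (Cd6-/- 20 h), 11 (Cd6-/- 20 h over 4 h), 10 (Cd5-/-Cd6-/- 4 h), 16 (Cd5-/-Cd6-/- 20 h), and 15 (Cd5-/-Cd6-/- 20 h over 4 h) in experiment I. With a fold over 2 required as well, the counts were 7 (WT 4 h), 13 (WT 20 h), 10 (WT 20 h over 4 h), 4 (Lat-/- 4 h), 5 (Lat-/- 20 h), 1 (Lat-/- 20 h over 4 h), 7 (Lat-/- over WT at 4 h), 10 (Lat-/- over WT at 20 h), 6 (the difference of responses 4 h), 12 (the difference of responses 20 h), and 9 (the difference of responses 20 h over 4 h) in experiment II. Counts with a fold over 2 take both directions together. Beside the 16 members at 20 h in WT cells of experiment I, 29.6% of all genes tested passed both limits. The share of all genes is not given for the other counts with a fold over 2, which thus describe the members alone. With the replicate number as a block, the counts were 39 (WT 4 h) and 44 (WT 20 h over 4 h) in experiment I. With the replicate number as a block, the count was 13 (Lat-/- 4 h) in experiment II. With library totals, the counts were 26 (WT 4 h) and 25 (the difference of responses 4 h) in experiment II. With the filter filterByExpr, the counts were 21 (Lat-/- over WT at 4 h) and 11 (the difference of responses 20 h over 4 h) in experiment II. With the compared groups fitted alone, the count was 24 (Cd6-/- 4 h) in experiment I. With the compared groups fitted alone, the count was 15 (Lat-/- 4 h) in experiment II. Without the 0 h library 3 labelled Cd6-/-, the count was 16 (Cd6-/- 4 h) in experiment I. Without the 0 h library 2 of WT cells, the count was 1 (Lat-/- over WT at 0 h) in experiment II. With library totals, the median was -0.26 (Cd5-/-Cd6-/- 4 h) in experiment I. With library totals, the medians were -0.25 (WT 4 h), -0.13 (WT 20 h over 4 h), 0.15 (Lat-/- 4 h), 0.35 (Lat-/- over WT at 4 h), and -0.033 (the difference of responses 20 h over 4 h) in experiment II. With the compared groups fitted alone, the median was -0.25 (WT 20 h over 4 h) in experiment II. Without the 0 h library 2 of WT cells, the medians were 0.24 (WT 4 h), -0.062 (WT 20 h), 0.24 (Lat-/- over WT at 0 h), -0.023 (the difference of responses 4 h), and 0.077 (the difference of responses 20 h) in experiment II. Over the well-read members alone, the medians were -0.26 (WT 20 h over 4 h) and 0.32 (Lat-/- over WT at 4 h) in experiment II. The share of reads in Cd6-/- cells at 4 h was 3.52% with reads of protein-coding genes as the denominator and 3.42% without the paralogs and Rps19bp1. Leaving out each replicate in turn, counts ranged from 19 to 41 (WT 4 h), 22 to 56 (Cd6-/- 4 h), 0 to 1 (Cd5-/- over WT at 0 h), 0 to 1 (Cd6-/- over WT at 20 h), 0 to 1 (Cd5-/-Cd6-/- over WT at 0 h), 0 to 1 (the response difference Cd5-/- minus WT 4 h), 0 to 1 (the response difference Cd6-/- minus WT 4 h), 0 to 1 (the response difference Cd6-/- minus WT 20 h), 0 to 3 (the response difference Cd5-/-Cd6-/- minus WT 4 h), and 0 to 1 (the response difference Cd5-/-Cd6-/- minus WT 20 h) in experiment I. Leaving out each replicate in turn, counts ranged from 21 to 40 (WT 20 h over 4 h), 4 to 19 (Lat-/- 4 h), 6 to 10 (Lat-/- 20 h), 3 to 13 (Lat-/- 20 h over 4 h), 0 to 1 (Lat-/- over WT at 0 h), 11 to 43 (Lat-/- over WT at 4 h), 5 to 24 (the difference of responses 4 h), 22 to 34 (the difference of responses 20 h), and 4 to 16 (the difference of responses 20 h over 4 h) in experiment II. Medians ranged likewise from -0.23 to 0.24 (WT 4 h), -0.43 to -0.13 (WT 20 h), -0.36 to -0.18 (WT 20 h over 4 h), 0.13 to 0.30 (Lat-/- 4 h), 0.10 to 0.35 (Lat-/- over WT at 4 h), and -0.12 to 0.44 (the difference of responses 4 h) in experiment II. In this paragraph, WT 4 h stands for WT cells at 4 h against 0 h, and likewise for the others. With the block, no other count moved beyond 1.5 times.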
